A study of Mus musculus with 6 samples.

Results

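The genes described here are the cadherins and the protocadherins that lie outside the clustered protocadherin arrays, in heads of mouse embryos at embryonic day 8.5. They were chosen by symbol: rows of the deposited expression table named Cdh or Pcdh followed by a number, with Pcdh11x as the 1 name that carries an extra letter. This gave 35 of 24062 genes, 23 Cdh and 12 Pcdh. The embryos were of the C57BL/6 strain and carried the Prdm15 tm1a allele on 0, 1 or 2 chromosomes: Prdm15 tm1a+/+ (wild type), Prdm15 tm1a+/- (heterozygous) and Prdm15 tm1a-/- (mutant). There were 2 polyA RNA libraries of each genotype, and 2 heads of each were dissected according to the protocol. Litters, sex and batches are not labelled. All p-values therefore rest on differences among 6 libraries whose biological independence the labels do not state. Xist, the X-inactivation RNA, serves here in place of a sex label. Levels of at least 10 CPM (reads scaled to library size) are called high. Both mutant libraries were high, neither heterozygous library was, and of the wild type only replicate 2 was. Mutant and heterozygous libraries thus differed in Xist as well as genotype, and mutant and wild-type libraries partly so. Only the wild-type pair held both Xist levels, so a term for high Xist rests on that pair. The series title names a Prdm15 mutation, forebrain development and Otx2, which sets the question of what differs between the genotypes in the head.

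Cadherins are membrane proteins that join cells to one another through calcium-dependent contacts of their extracellular repeats. The classical type I and type II cadherins bind catenins inside the cell, which link them to actin. In the embryo E-cadherin (Cdh1) marks surface epithelia and endoderm, and N-cadherin (Cdh2) replaces it as the neural plate forms. Neural crest cells change their cadherins again when they leave the neural tube. Non-clustered protocadherins, most of which are delta-protocadherins, have weaker adhesion, and many are patterned across the developing brain and mesoderm.

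Reads assigned to genes numbered 29412227 to 40439234 per library. Of the count files, that listed under wild-type replicate 2 bears the title of mutant replicate 1 in its name, and the reverse holds for mutant replicate 1. Each was matched to the RPKM column of the title in its name, with 0 genes differing in zero status and 100% of genes over 50 counts within 0.1% of 1 constant factor to the count-to-RPKM ratios of wild-type replicate 1, against 1646 differing genes for the column of the sample it is listed under. Values are by title, as the rule for the genes asks. With the files left as attached, 0 of the 29 genes tested passed in any contrast and 13 had the other sign in mutant against wild type. Otx2, a homeobox gene of the forebrain and midbrain, stood at 109 and 86.1 CPM (reads scaled to a common library size, TMM-adjusted) in wild-type, 75.4 and 71.9 in heterozygous and 42.5 and 24.9 in mutant libraries. Prdm15 stood at 35.2 and 32.6, 28.3 and 31.8, and 26.6 and 32 CPM. Whole-gene counts cannot show a cassette insertion, so Prdm15 did not check the labels. Neural tissue was looked for with 15 neural progenitor markers, a list that cannot tell heads from other neural parts of the embryo. The markers summed to 1653 to 2130 CPM over the 6 libraries. Lin28a, which is not specific to neural tissue, made up 1035 to 1292 CPM of this. The 14 others summed to 962 and 899 CPM in wild-type, 741 and 793 in heterozygous and 512 and 599 in mutant libraries, so neural progenitor RNA was present in all libraries and lowest in the mutants. Markers of visceral endoderm, an extra-embryonic tissue, summed to 298 and 300 CPM in wild-type, 3595 and 2661 in heterozygous and 6221 and 5206 in mutant libraries. In wild-type libraries Lrp2 (149 and 154 CPM) and Dab2 (134 and 125 CPM) made up most of this sum. The highest of the other markers there was Apob, at 2.03 and 3.58 CPM.

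In mutant heads the 3 tested epithelial members were higher and the 4 crest and mesenchyme members lower. Of 29 members tested, 16 passed edgeR's quasi-likelihood test at an adjusted p under 0.05, where 30.6% of all genes tested did. At an unadjusted p under 0.05 there were 19, where 43.8% of all genes were. Of the 16, 4 were higher, Cdh1, Cdh3, Pcdh1 and Pcdh7, where 17.1% of all genes tested were higher. The 12 lower members were Cdh2, Cdh6, Cdh7, Cdh8, Cdh11, Cdh19, Cdh20, Cdh22, Pcdh9, Pcdh15, Pcdh17 and Pcdh18, where 13.6% of all genes were lower. The other 13 did not pass, and 6 (Cdh9, Cdh12, Cdh16, Cdh17, Cdh18 and Cdh26) had too few reads to be tested. The median log2 fold change of the members tested was -0.67, against -0.02 for all genes tested. By use, 3 of the 3 tested epithelial members rose and 4 of 4 crest and mesenchyme members fell. Of 14 neural members 6 fell and 1 rose. Of 3 endothelial members 0 passed. Cdh13 of these was at -0.67 (SE 0.24), and the crest member Cdh11, which passed, was also at -0.67 (SE 0.11). In bulk heads fewer cells of a type and less RNA per cell cannot be told apart.

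**Figure D1:**
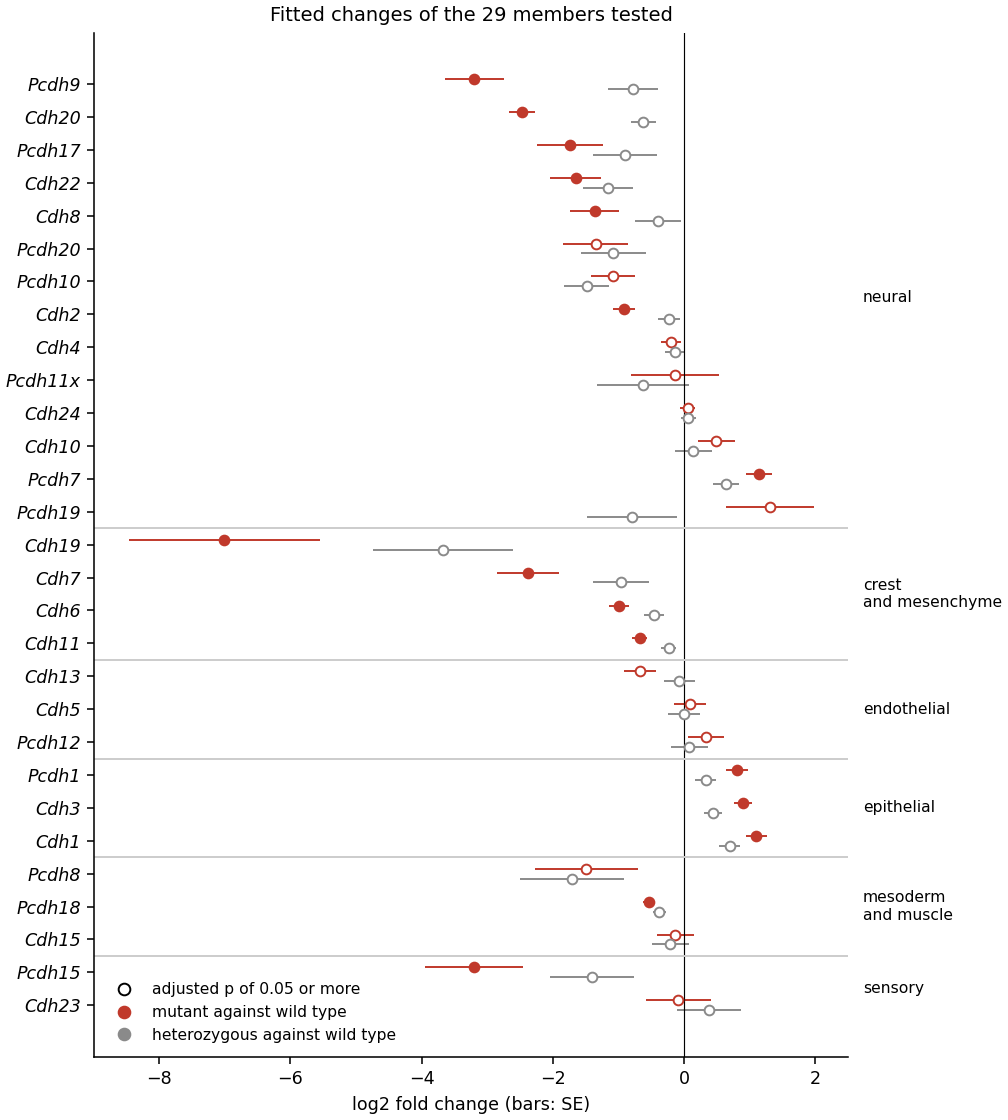
Log2 fold changes (x axis, bars are SE) of the 29 members tested, in mutant (red) and heterozygous (grey) against wild-type libraries, 2 libraries a group; filled points passed at an adjusted p under 0.05. In mutants 4 filled points lie right of 0 and 12 left of it, and in heterozygotes no point is filled.

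The members differed widely in level. In RPKM (reads scaled by transcript length and library size, the unit of the authors' table), 18 members reached a mean of 1 in at least 1 genotype, 12 were at 1 or over in every library, and 14 stayed below 0.25 in every library. Cdh2 led the family in wild-type heads, followed by Cdh11, Cdh1, Cdh5 and Cdh6. The summed RPKM of all 35 members was 223 and 235 in wild-type, 216 and 231 in heterozygous and 224 and 212 in mutant libraries. The sum thus overlapped between the genotypes while its parts shifted. Cdh2 made up 25.4% and 23.2% of it in wild-type and 13.4% and 13.6% in mutant libraries. Cdh1 made up 9.57% and 9.87% in wild-type and 20.6% and 23% in mutant libraries.

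**Figure D2:**
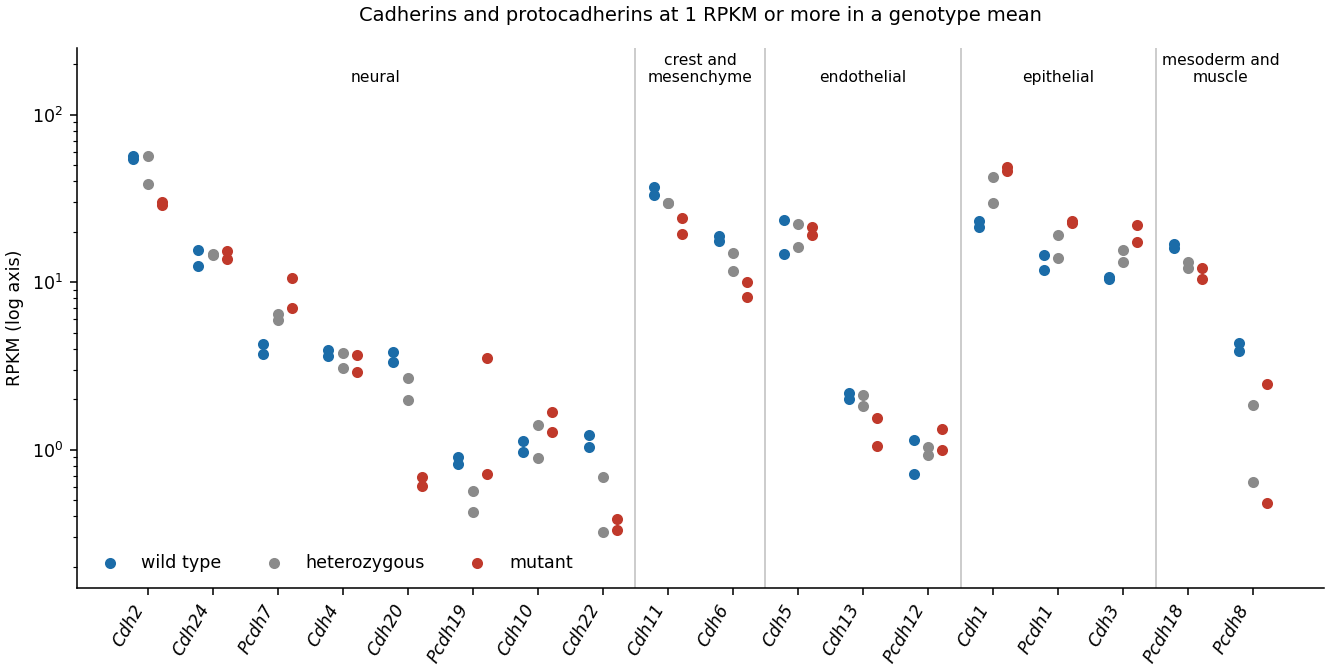
RPKM (log axis) of the 18 members with a mean of at least 1 RPKM in a genotype, grouped by use; each point is 1 library. Red mutant points lie above blue wild-type points for Cdh1, Cdh3, Pcdh1 and Pcdh7 and below them for Cdh2, Cdh6, Cdh11, Cdh20, Cdh22 and Pcdh18, while those of Cdh5 and Cdh24 overlap.

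Cdh2 encodes N-cadherin, the main classical cadherin of the neural plate and also of the heart and somites. Its level was 56.6 and 54.7 RPKM in wild-type, 38.3 and 56.4 in heterozygous and 30 and 28.8 in mutant libraries. Both mutant libraries lay below all others, and heterozygous replicate 2 stood within the wild-type range. In mutants it was changed by -0.91 on the log2 scale relative to wild type (SE 0.17, adjusted p = 0.0136). The call was lost without wild-type replicate 1 (adjusted p = 0.052), mutant replicate 1 (0.066) or mutant replicate 2 (0.0666), with values from -0.97 to -0.87 over all alternatives by title. The 15 neural progenitor markers, in the same comparison, had a median of -0.69, with 9 lower and 0 higher. Their part in the change of Cdh2 was not tested.

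Cdh1 encodes E-cadherin. It stood at 21.3 and 23.2 RPKM in wild-type, 42.2 and 29.7 in heterozygous and 46.1 and 48.9 in mutant libraries. The genotypes did not overlap, and both heterozygous libraries lay between the other genotypes. In mutants it rose 2.15-fold over wild type, 1.10 on the log2 scale (SE 0.16, adjusted p = 0.00639). This call was kept in all 14 alternatives by title (highest adjusted p = 0.0343). The ratio of Cdh1 to Cdh2 in RPKM was 0.376 and 0.425 in wild-type, 1.10 and 0.527 in heterozygous and 1.54 and 1.70 in mutant libraries. Cdh1 thus exceeded Cdh2 in both mutant libraries and in heterozygous replicate 1.

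**Figure D3:**
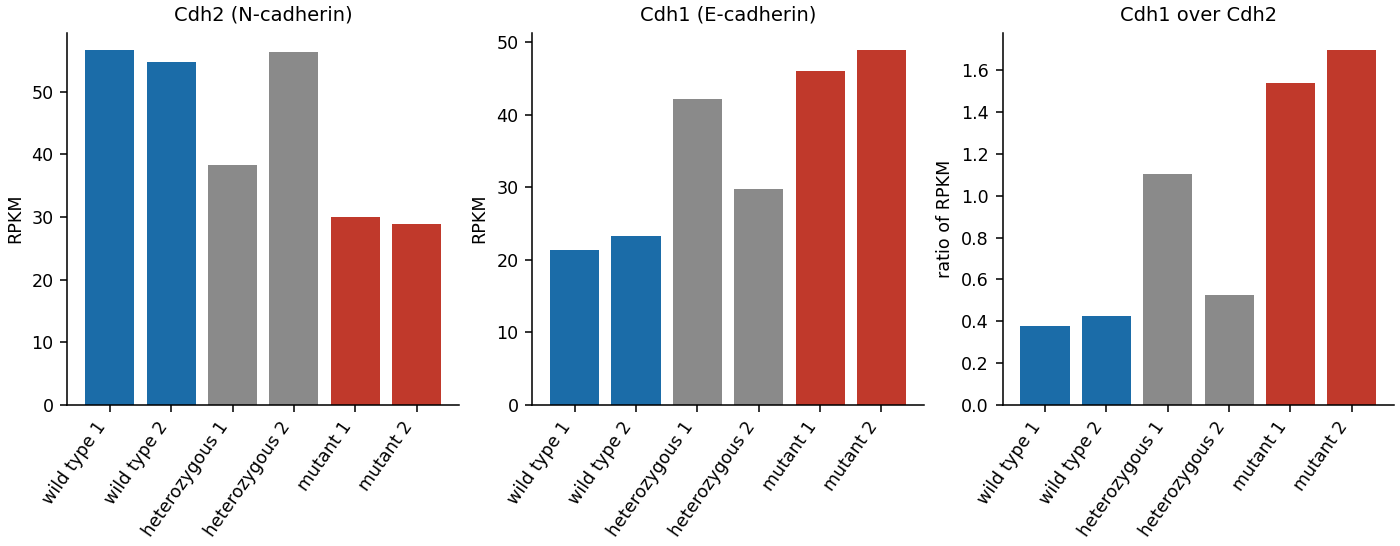
RPKM of Cdh2 (left) and Cdh1 (middle) and their ratio (right) in each of the 6 libraries; each bar is 1 library. The ratio was 0.376 and 0.425 in wild-type and 1.54 and 1.70 in mutant libraries, and the heterozygous libraries differed from each other at 1.10 and 0.527.

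Cdh3, P-cadherin of epithelia, lies close to Cdh1 on chromosome 8. It stood at 10.7 and 10.4 RPKM in wild-type, 13.2 and 15.6 in heterozygous and 22 and 17.4 in mutant libraries, again with no overlap. It rose by 0.91 on the log2 scale (SE 0.14, adjusted p = 0.00745), and all 14 alternatives by title passed it. Pcdh1, a protocadherin of epithelia and vessels, stood at 11.8 and 14.5, 19 and 13.9, and 23.2 and 22.4 RPKM. Mutant libraries were the highest, and heterozygous replicate 2 lay among the wild-type values. Pcdh1 rose by 0.81 on the log2 scale (SE 0.17, adjusted p = 0.0176). The call was lost without wild-type replicate 1 (adjusted p = 0.0705), mutant replicate 1 (0.078) or mutant replicate 2 (0.0659), and with a term for high Xist (0.0743).

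The 3 other epithelial members were scarce. Cdh16, a kidney cadherin, had 1 read in both wild-type libraries together, 11 in the heterozygous and 7 in the mutant ones. Cdh17, a cadherin of liver and intestine, had 1, 9 and 12 reads, and Cdh26 had 1, 2 and 7. For Cdh17 the mutant to wild-type ratio per assigned read was 13.2, with an exact 95% interval of 1.95 to 563 that covers counting error only. In the authors' deposited table Cdh17 has a log2 fold change of 3.43 with a false discovery rate of 0.0359.

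Some markers of other epithelia moved with these members. Of 16 visceral endoderm markers, 16 rose in mutant against wild-type libraries (median log2 fold change 8.54), and Apoa4 was at 0 in wild-type replicate 1. Of 15 epithelial markers 6 rose and 1 fell. They summed to 622 and 655 CPM in wild-type, 1092 and 898 in heterozygous and 1518 and 1375 in mutant libraries, and none was at 0 in any library. Krt18, a keratin of simple epithelia, rose by 1.88 (SE 0.15), and Cldn6 and Cldn7, tight junction claudins, rose by 1.34 (SE 0.09) and 1.55 (SE 0.09). Krt8 and Krt18 carried much of the sum. In wild-type libraries Krt8 was at 130 and 129 and Krt18 at 111 and 116 CPM. In mutant libraries Krt8 was at 537 and 400 and Krt18 at 456 and 379 CPM. Epcam at 0.24 (SE 0.12, adjusted p = 0.173) and Esrp1 at 0.10 (SE 0.09, adjusted p = 0.441) did not pass. Krt7 was the 1 that fell (-1.15, SE 0.31). Of 10 surface ectoderm markers 0 rose and 2 fell, where 17.1% of all genes tested rose and 13.6% fell. Those 2 were Dlx5 at -0.86 (SE 0.17) and Trp63 at -3.31 (SE 0.72). The part of these tissues in the rise of Cdh1, Cdh3 and Pcdh1 was not tested.

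**Figure D4:**
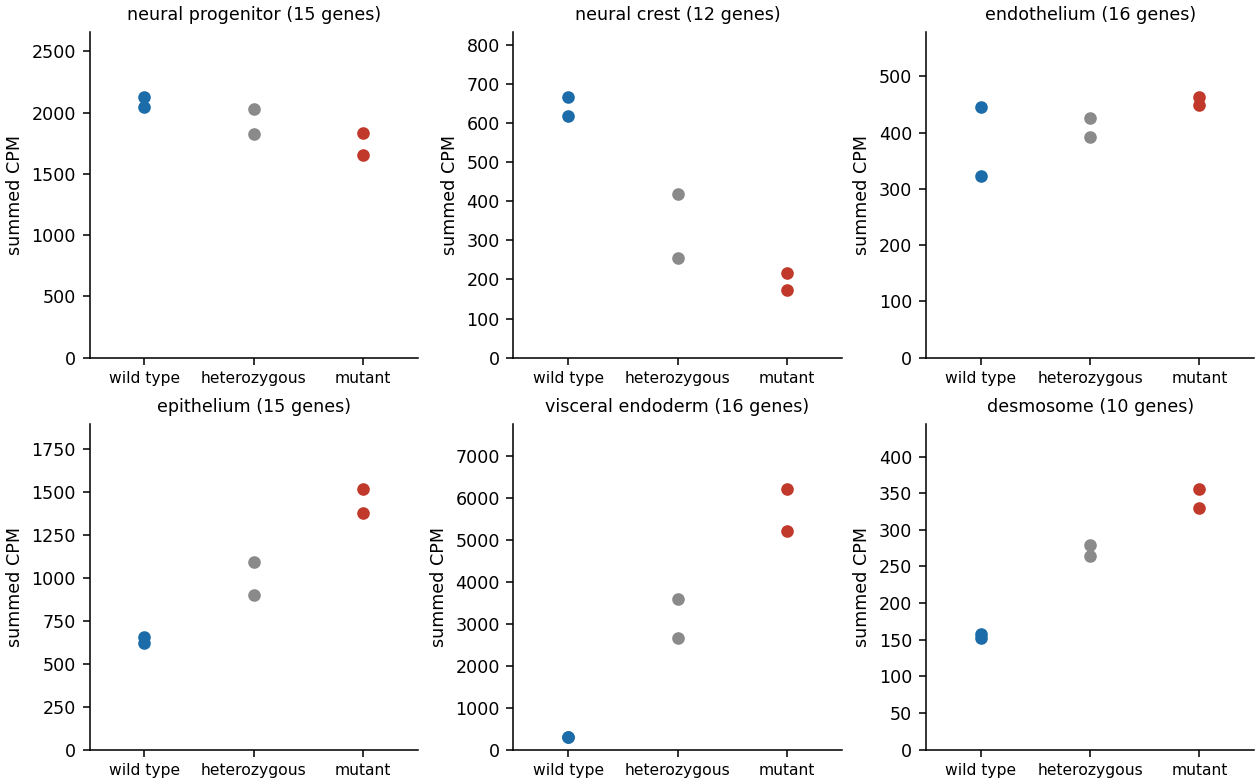
Summed CPM of 6 marker lists (y axis, from 0) by genotype; each point is 1 library. Visceral endoderm, epithelium and desmosome sums stand highest in mutant libraries, neural crest sums are lowest there, and endothelium sums reach 322 and 445 CPM in wild-type and 464 and 449 in mutant libraries.

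The crest and mesenchyme cadherins are type II members. Cdh6 is expressed in the dorsal neural tube and early crest. Its window before the transcription start is shown because it is the crest member with a promoter entry in RefSeq and a call that held throughout. The sequence (GRCm38.p6, chr15:13173676-13173925, minus strand, 5′ to 3′) has capitals for GC boxes (GGGCGG on either strand), of which it holds 2 that overlap:
Cdh6: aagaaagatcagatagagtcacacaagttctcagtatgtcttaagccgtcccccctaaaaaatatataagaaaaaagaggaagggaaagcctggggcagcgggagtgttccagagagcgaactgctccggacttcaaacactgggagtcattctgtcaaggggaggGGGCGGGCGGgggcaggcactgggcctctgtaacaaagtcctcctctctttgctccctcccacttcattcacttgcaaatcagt

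Cdh6 stood at 18.9 and 17.6 RPKM in wild-type, 11.7 and 14.8 in heterozygous and 10.1 and 8.11 in mutant libraries. The order was the same for every pair of libraries, wild type above heterozygous above mutant. It was at -0.99 on the log2 scale in mutants (SE 0.16, adjusted p = 0.00811), a call kept in all 14 alternatives by title.

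Cdh11, a cadherin of mesenchyme and migrating crest, was the second most abundant member in wild-type heads. It stood at 33.1 and 36.8 RPKM, against 29.5 and 29.9 in heterozygous and 24.1 and 19.4 in mutant libraries. The 3 genotypes did not overlap. Mutants were at -0.67 relative to wild type on the log2 scale (SE 0.11, adjusted p = 0.00962), also kept in all 14 alternatives by title.

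Cdh19, known from Schwann cell precursors, nearly disappeared. It had 82 and 97 reads in wild-type, 0 and 11 in heterozygous and 1 and 0 in mutant libraries. Heterozygous replicate 1 was thus as low as the mutants, at 0 reads, where 3 reads would be 0.096 CPM. The ratio of mutant to wild-type reads per assigned read was 0.00613 (exact 95% interval 0.000154 to 0.0346, counting error only). The fitted log2 fold change was -7.01 (SE 1.46, adjusted p = 0.0181), a size that depends on how such low counts are fitted. The call was lost without mutant replicate 1 (adjusted p = 0.0881) or mutant replicate 2 (0.0919).

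Cdh7, a cadherin of migrating crest and ventral neural tube in other vertebrates, was rarer still. It had 28 and 26 reads in wild-type, 9 and 13 in heterozygous and 6 and 3 in mutant libraries, with no overlap between the genotypes. Cdh7 was at -2.38 on the log2 scale against wild type (SE 0.47, adjusted p = 0.0157). Leaving out wild-type replicate 1, wild-type replicate 2, mutant replicate 1 or mutant replicate 2 lost the call (adjusted p = 0.0628, 0.063, 0.0715 and 0.087).

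Crest markers fell in the same libraries. Of 12 markers 9 were lower and 1 higher, with sums of 619 and 668 CPM in wild-type, 254 and 420 in heterozygous and 216 and 173 in mutant libraries. Sox10, a regulator of crest and glia, stood at 104 and 129, 4.35 and 48.8, and 1.65 and 1.09 CPM. As with Cdh19, heterozygous replicate 1 was well below heterozygous replicate 2. Of 11 tested head mesenchyme markers, by contrast, 7 rose and 0 fell (median log2 fold change 0.45), beside the fall of Cdh11. The part of crest cell number in the falls of the 4 crest cadherins was not tested.

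Among the neural members other than Cdh2, Cdh20 had the smallest p of the family. It encodes a type II cadherin of the neural tube. Its upstream window is shown because this gene was the only member to pass in mutant against heterozygous libraries as well. The sequence (GRCm38.p6, chr1:104768270-104768519, plus strand, 5′ to 3′) holds none of the 4 motifs searched, so it has no capitals:
Cdh20: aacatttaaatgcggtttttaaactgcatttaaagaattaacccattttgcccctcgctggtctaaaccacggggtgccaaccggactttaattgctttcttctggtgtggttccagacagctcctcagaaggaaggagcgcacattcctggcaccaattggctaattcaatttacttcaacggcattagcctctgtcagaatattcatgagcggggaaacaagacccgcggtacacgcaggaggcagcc

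Cdh20 stood at 3.83 and 3.34 RPKM in wild-type, 1.98 and 2.67 in heterozygous and 0.682 and 0.604 in mutant libraries, with no overlap. In mutants the gene fell by 2.47 relative to wild type on the log2 scale (SE 0.20, adjusted p = 0.00122), a call kept in all 14 alternatives by title. In mutant against heterozygous libraries it was -1.84 (SE 0.20, adjusted p = 0.0385). That second call was lost in 6 of the 14 alternatives, among them a term for high Xist (adjusted p = 0.399) and limma-voom (adjusted p = 0.0605). Both mutant libraries and neither heterozygous library were high in Xist. The call was also lost without wild-type replicate 1 (log2 fold change -1.83), heterozygous replicate 2 (-1.62), mutant replicate 1 (-1.94) or mutant replicate 2 (-1.77).

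Pcdh9, a protocadherin of the developing brain, was low but lost most of its reads. It had 43 and 43 reads in wild-type, 16 and 24 in heterozygous and 4 and 4 in mutant libraries. Relative to wild type, mutants were at -3.19 on the log2 scale (SE 0.45, adjusted p = 0.00581), kept in all 14 alternatives by title. Against heterozygous libraries it was -2.42 (SE 0.45, adjusted p = 0.0855), which did not pass.

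Cdh22, Cdh8 and Pcdh17 are further brain members, and their falls were less secure. Cdh22 stood at 1.04 and 1.23 RPKM in wild-type, 0.324 and 0.691 in heterozygous and 0.383 and 0.332 in mutant libraries. Heterozygous replicate 1 was below both mutant libraries. The log2 difference in mutants was -1.65 (SE 0.39, adjusted p = 0.0267), and leaving out wild-type replicate 1, wild-type replicate 2, mutant replicate 1 or mutant replicate 2 lost the call (adjusted p = 0.0657, 0.0736, 0.104 and 0.115). Pcdh17 stood at 0.572 and 0.65, 0.176 and 0.475, and 0.136 and 0.229 RPKM, so that heterozygous replicate 1 lay between the 2 mutant libraries. At -1.74 (SE 0.51, adjusted p = 0.0484) it was just past the threshold, and without those same libraries in turn the adjusted p was 0.106, 0.109, 0.207 and 0.092. A term for high Xist also lost both, at an adjusted p of 0.0625 for Cdh22 and 0.102 for Pcdh17. Cdh8 had 29 and 24 reads in wild-type, 17 and 15 in heterozygous and 11 and 7 in mutant libraries. The difference of -1.36 in mutants (log2, SE 0.37, adjusted p = 0.0395) passed in 4 of 14 alternatives by title. Leaving out any 1 of the 6 libraries lost it (adjusted p = 0.151 and 0.13 for wild-type replicates 1 and 2, 0.0751 and 0.0728 for the heterozygous and 0.144 and 0.168 for the mutant ones).

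Pcdh7 was the 1 neural member that rose past the threshold. This protocadherin is expressed in the nervous system, and also in heart and ectoderm. It is shown as the 1 riser with a promoter entry, limited to the bases before the GENCODE start of the gene (GRCm38.p6, chr5:57717831-57717966, plus strand, 5′ to 3′). It too holds none of the 4 motifs:
Pcdh7: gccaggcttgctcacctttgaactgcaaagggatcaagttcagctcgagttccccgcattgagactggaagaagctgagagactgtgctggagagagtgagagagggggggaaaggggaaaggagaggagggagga

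Pcdh7 stood at 3.72 and 4.29 RPKM in wild-type, 6.49 and 5.97 in heterozygous and 10.6 and 7.04 in mutant libraries. The genotypes did not overlap. It rose 2.21-fold, 1.15 on the log2 scale (SE 0.20, adjusted p = 0.0108), and the call was lost with a term for high Xist (adjusted p = 0.0511). Heart markers rose in 9 of 12 cases in the same comparison. They summed to 180 and 117 CPM in wild-type, 1224 and 1718 in heterozygous and 1546 and 983 in mutant libraries, and their part in the change of Pcdh7 was not tested.

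Several neural members showed no called change. Cdh24, a type II cadherin, was abundant at 15.5 and 12.6 RPKM in wild-type, 14.6 and 14.8 in heterozygous and 13.8 and 15.3 in mutant libraries. The genotypes overlapped, with a log2 fold change of 0.06 (SE 0.12, adjusted p = 0.741). Cdh4, R-cadherin of retina and brain, stood at 3.93 and 3.64, 3.8 and 3.09, and 3.67 and 2.90 RPKM, also with overlap (-0.19, SE 0.15, adjusted p = 0.384). Cdh10, a brain cadherin, stood at 1.13 and 0.970 RPKM in wild-type, 1.41 and 0.895 in heterozygous and 1.27 and 1.68 in mutant libraries. Both mutant libraries lay above both wild-type ones, with heterozygous replicate 1 between the mutant values, and the difference from wild type did not pass (0.50, SE 0.28, adjusted p = 0.23).

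Pcdh19, an X-linked protocadherin of the brain, was set apart by 1 library. It stood at 0.816 and 0.899 RPKM in wild-type, 0.423 and 0.563 in heterozygous, and 0.719 and 3.52 in mutant libraries. Mutant replicate 2 was thus far above the other mutant library. The log2 fold change of 1.31 (SE 0.67, adjusted p = 0.19) did not pass. Without mutant replicate 1 it passed at 2.05 (adjusted p = 0.00853), and without mutant replicate 2 it was -0.25. Xist, the X-inactivation RNA, was at 1100 CPM in that library, 1274 in mutant replicate 1, 1314 in wild-type replicate 2 and at most 0.354 in the other 3.

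Pcdh10 and Pcdh20, brain protocadherins, were lower in both heterozygous and both mutant libraries than in wild type without passing. Pcdh10 had 79 and 63 reads in wild-type, 16 and 24 in heterozygous and 37 and 22 in mutant libraries. Its log2 fold changes were -1.09 (SE 0.34, adjusted p = 0.0574) in mutants and -1.49 (SE 0.35, adjusted p = 0.0653) in heterozygotes. Scaling by library totals or upper quartiles, or limma-voom, passed the first of these (adjusted p = 0.0472, 0.0483 and 0.0405). Pcdh20 had 20 and 15, 5 and 8, and 8 and 4 reads (-1.35, SE 0.50, adjusted p = 0.0922). Pcdh11x had 5 to 15 reads per library (-0.14, SE 0.67, adjusted p = 0.895).

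The 3 untested neural members could not be compared at this depth beyond their reads. In wild-type, heterozygous and mutant libraries together Cdh9 had 6, 19 and 16 reads, Cdh12 had 5, 6 and 4, and Cdh18 had 11, 2 and 25, of which 19 were in mutant replicate 2.

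Cdh5, VE-cadherin of endothelial junctions, did not pass in any comparison. It stood at 14.8 and 23.5 RPKM in wild-type, 16.2 and 22.2 in heterozygous and 21.4 and 19.1 in mutant libraries. The wild-type libraries lay on both sides of the mutant ones. In mutants it differed by 0.09 on the log2 scale (SE 0.25, adjusted p = 0.815), and its sign turned with a term for high Xist (-0.21) or without wild-type replicate 1 (-0.19). Pcdh12, a second endothelial cadherin, stood at 0.717 and 1.14, 1.03 and 0.929, and 1.33 and 0.993 RPKM (0.33, SE 0.28, adjusted p = 0.402). Wild-type replicate 1 was the lowest library for both genes.

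Of 16 other endothelial markers 3 rose and 0 fell, and their median log2 fold change was 0.19. The share that rose is near the 17.1% of all genes tested. Tek, an angiopoietin receptor, rose by 1.60 (SE 0.18), the transcription factor gene Sox17 by 1.16 (SE 0.18) and Ecscr by 0.54 (SE 0.13). Emcn went the other way without passing (-1.56, SE 0.50, adjusted p = 0.064). It stood at 10.1 and 15.5 CPM in wild-type, 4.19 and 9.79 in heterozygous and 2.98 and 5.72 in mutant libraries. Pecam1, an endothelial adhesion gene, stood at 14.3 and 25.8 CPM in wild-type, 17.6 and 22.1 in heterozygous and 30.9 and 33.2 in mutant libraries and did not pass (adjusted p = 0.113). Of 10 erythroid markers, for blood within the vessels, 0 rose and 1 fell, where 13.6% of all genes tested fell. Their median log2 fold change was -2.11. They summed to 178 and 263 CPM in wild-type, 9.99 and 249 in heterozygous and 36.6 and 17.2 in mutant libraries. Hbb-y, the 1 that fell, was at -5.34 (SE 1.54). Cdh13, T-cadherin, is anchored by lipid and has no catenin-binding tail. It stood at 1.99 and 2.16 RPKM in wild-type, 2.13 and 1.83 in heterozygous and 1.05 and 1.55 in mutant libraries. Both mutant libraries were the lowest, yet the difference did not pass (-0.67, SE 0.24, adjusted p = 0.0832).

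Mesoderm members were mixed. Pcdh18, a protocadherin of mesoderm and mesenchyme, stood at 16 and 17 RPKM in wild-type, 12.1 and 13.2 in heterozygous and 12.2 and 10.4 in mutant libraries. Wild type was above both other genotypes, which overlapped. In mutants it fell by 0.53 on the log2 scale (SE 0.10, adjusted p = 0.0125), kept in all 14 alternatives by title. Pcdh8, paraxial protocadherin of somites, stood at 3.87 and 4.35, 0.645 and 1.86, and 0.482 and 2.46 RPKM. Both wild-type libraries were above all others, and the mutant libraries were far apart. Neither -1.49 (SE 0.79, adjusted p = 0.2) in mutants nor -1.71 (SE 0.79, adjusted p = 0.26) in heterozygotes passed. Leaving out mutant replicate 2 passed the first of these at -3.09 (adjusted p = 0.0486). Cdh15, M-cadherin of muscle, ranged from 0.33 to 0.411 RPKM over the 6 libraries (-0.13, SE 0.28, adjusted p = 0.753).

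Cdh23 and Pcdh15 form the tip links of inner ear hair cells later in life. Pcdh15 had 36 and 28 reads in wild-type, 5 and 14 in heterozygous and 5 and 1 in mutant libraries. In mutants it fell by 3.20 on the log2 scale (SE 0.74, adjusted p = 0.0251). The call was lost without wild-type replicate 1 (adjusted p = 0.0818), wild-type replicate 2 (0.0607), mutant replicate 1 (0.0654) or mutant replicate 2 (0.106), and with a term for high Xist (0.0707). Cdh23 had 6 to 11 reads in every library (-0.08, SE 0.49, adjusted p = 0.94).

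Heterozygous heads were compared with wild-type heads next. Of the 29 members tested 0 passed edgeR's quasi-likelihood test, where 6.56% of all genes tested passed, 6.03% as higher and 0.533% as lower. At an unadjusted p under 0.05 there were 9 members, where 23.7% of all genes were, and DESeq2 passed 5 and limma-voom 0. The smallest adjusted p was that of Cdh1, at 0.69 (SE 0.16, adjusted p = 0.0632). Cdh3 was at 0.45 (SE 0.14, adjusted p = 0.126) and Pcdh7 at 0.64 (SE 0.20, adjusted p = 0.128), while Cdh20 was at -0.62 (SE 0.19, adjusted p = 0.123) and Cdh6 at -0.46 (SE 0.15, adjusted p = 0.15). Groups that did not overlap numbered 16 lower and 4 higher among the 29, where 27.6% and 28.7% of all genes were so. Without heterozygous replicate 2, the library nearer to wild type for Cdh1, Cdh2 and Cdh19, these 3 members passed (adjusted p = 0.0118, 0.0202 and 0.0355).

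Of the 16 members called in mutant against wild type, 10 had both heterozygous libraries between those of the other genotypes in RPKM. Among all 4654 genes called there the share was 67.9%, and among the members 62.5%. The 6 exceptions were Cdh2, Cdh19, Cdh22, Pcdh1, Pcdh17 and Pcdh18.

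Between mutant and heterozygous libraries, Cdh20 was the only member of 29 that passed, as lower, where 0.435% of all genes tested passed, 0.362% as lower and 0.0724% as higher. At an unadjusted p under 0.05 there were 13 members, where 21.3% of all genes were. Cdh2 was at -0.68 (SE 0.17, adjusted p = 0.119), Cdh11 at -0.44 (SE 0.11, adjusted p = 0.12) and Cdh3 at 0.46 (SE 0.14, adjusted p = 0.15). DESeq2 passed 5 members here, Cdh2, Cdh3, Cdh6, Cdh11 and Cdh20. These comparisons share libraries with the others, so their values are set side by side without a test of likeness.

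Position was not used to choose the genes, and many members lie next to each other with few genes between (coordinates from GENCODE M21, GRCm38). On chromosome 1 Cdh20 (104768529 to 104995481), Cdh7 (109982431 to 110140157) and Cdh19 (110888326 to 110977584) follow each other, and all 3 fell in mutants. No coding gene lies between Cdh7 and Cdh19. Between Cdh20 and Cdh7 there are 20, of which 7 were tested, 2 fell and 0 rose. Those 2 were Rnf152, a ubiquitin ligase gene, at -1.96 (SE 0.37) and Bcl2, a cell survival gene, at -0.92 (SE 0.24). On chromosome 8 Cdh3 (106510891 to 106557297) and Cdh1 (106603351 to 106670246) lie 0.046 Mb apart on the plus strand with 1 coding gene model between them, and both rose. Before them on that chromosome Cdh8 and Cdh11 fell and their next neighbour Cdh5 did not pass, with no coding gene between the 3.

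Other neighbours differed. On chromosome 14 Pcdh17 (-1.74) and Pcdh9 (-3.19) fell. Pcdh8 before them (-1.49, adjusted p = 0.2) and Pcdh20 between them (-1.35, adjusted p = 0.0922) were also lower but did not pass. On chromosome 15 Cdh6, Cdh9, Cdh10, Cdh12 and Cdh18 stand in a row with 0 coding genes between them. Of these Cdh6 fell, Cdh10 did not pass and 3 were not tested.

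**Figure D5:**
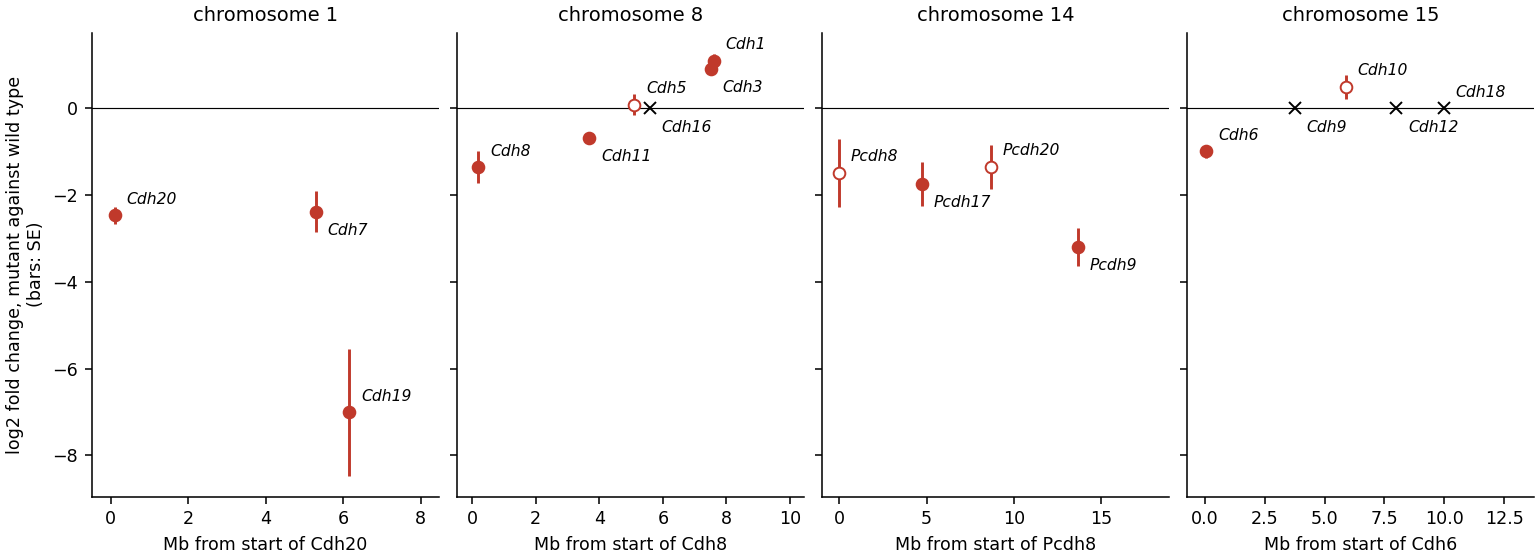
Mutant against wild-type log2 fold change (y axis, bars are SE) by distance in Mb from the first gene of each run on chromosomes 1, 8, 14 and 15. Filled points passed, open points did not, and crosses at 0 mark members not tested. All 3 members on chromosome 1 lie below 0, while Cdh3 and Cdh1 lie above it.

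Upstream windows of 250 bases were found in RefSeq for 22 of the 35 members (25 windows, build GRCm38.p6). No window was found for Cdh1, Cdh2, Cdh3, Cdh4, Cdh5, Cdh11, Cdh13, Cdh16, Cdh17, Cdh19, Pcdh1, Pcdh11x or Pcdh12, so these were not searched. By the GENCODE coordinates some windows lie inside the gene, among them those of Cdh7 and Pcdh15. The Pcdh9 windows overlap each other and were counted separately. The windows found were searched on both strands for 4 motifs. The Otx2-type homeodomain motif, TAATCC, was in 2 of the 25 windows, those of Cdh26 and 1 of Cdh7, and in 6.25% of 32851 windows of all genes. The E-box bound by Snai and Zeb factors is CAGGTG. It was in 3 of the 25, 2 of them of Cdh7 and 1 of Pcdh15, all inside these genes, and in 17.2% of all windows. The GC box was in 9 of the 25 and in 32.7% of all windows. The TATA box, searched as TATAAA, was in 2 of the 25, those of Pcdh8 and Pcdh15, and in 12.4% of all windows. A match is a description of the letters only. The members' windows held a median of 10 CpG dinucleotides, against 6 for all windows. The printed Cdh20 window held 10, that of Cdh6 held 6 and the 136 bases of Pcdh7 held 2.

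Proteins that work with cadherins were followed in lists chosen by function. Of 14 tested catenins and adherens junction genes 6 rose and 4 fell in mutant against wild-type libraries, where 17.1% and 13.6% of all genes tested did. Ctnna2 and Ctnnd2, the neural alpha- and delta-catenins, fell on the log2 scale, by 1.61 (SE 0.14) for the first and 1.88 (SE 0.21) for the second, as Cdh2 did. Pvrl1 and Pvrl2, which encode nectins, rose by 0.50 (SE 0.05) and 0.55 (SE 0.06). Jup, plakoglobin of desmosomes and adherens junctions, rose by 1.33 (SE 0.18). Ctnnb1, beta-catenin, stood at 1174 and 1215 CPM in wild-type, 1102 and 1038 in heterozygous and 959 and 956 in mutant libraries, a log2 change of -0.32 (SE 0.05, adjusted p = 0.00911).

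Of 6 tested desmosome genes 5 rose and 0 fell. Desmosomes are the second cadherin-based junction of epithelia and heart muscle. Dsg2, a desmosomal cadherin, stood at 22.5 and 23.7 CPM in wild-type, 63.3 and 52.5 in heterozygous and 86.8 and 81.9 in mutant libraries, a rise of 1.87 (SE 0.11). Dsc2, its partner, rose by 1.38 (SE 0.11), Dsp, desmoplakin, by 0.94 (SE 0.06) and Pkp2, plakophilin, by 1.20 (SE 0.16). In heterozygous against wild-type libraries 4 of the 6 rose, where 6.03% of all genes tested did. The list's sums were 152 and 158 CPM in wild-type, 280 and 264 in heterozygous and 356 and 330 in mutant libraries, beside the visceral endoderm sums given above.

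Of 15 tested large and atypical cadherins 7 fell and 2 rose. Celsr2 and Celsr3, planar polarity cadherins, fell by 1.00 (SE 0.12) and 0.67 (SE 0.08), and Clstn1, a calsyntenin of neurons, by 0.55 (SE 0.07). Cdhr2, a cadherin of intestinal microvilli, stood at 1.09 and 1.73 CPM in wild-type, 23.3 and 17.5 in heterozygous and 48.6 and 38.2 in mutant libraries, a rise of 4.95 (SE 0.28).

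Of 17 regulators of the switch between cadherins 3 rose and 2 fell, with a median log2 fold change of -0.06. These shares are near those of all genes tested, 17.1% higher and 13.6% lower. Snai2, a repressor of Cdh1, rose by 1.21 (SE 0.19), and Cdh1 rose in the same libraries. Zeb2, another such repressor, was at -0.66 (SE 0.07) and Snai1 at -0.72 (SE 0.22, adjusted p = 0.0561). The epithelial splicing factor gene Esrp2 rose by 1.35 (SE 0.17). Of 10 tested genes of cadherin processing, not all of them proteases, 4 rose and 0 fell. Furin, which cleaves the cadherin prodomain, stood at 41.9 and 42.8 CPM in wild-type, 104 and 90.8 in heterozygous and 154 and 127 in mutant libraries (1.73, SE 0.11). Adam10, the main sheddase of N- and E-cadherin, was at -0.01 (SE 0.09, adjusted p = 0.95).

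In the authors' deposited table, 5 members have a false discovery rate under 0.05 as higher and 11 as lower in mutant against wild type. They differ from the calls above by Cdh17, higher there and not tested here, and by Cdh8, whose rate there is 0.187.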

How the data were processed

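Stranded polyA libraries were sequenced as read pairs on a HiSeq 2500, per the labels' protocols. The submitters' processing notes name TopHat2 2.0.11 and build mm10, HTSeq 0.6.1p2, edgeR 3.8.6, and for base calls and trimming cutadapt 1.8, Trim Galore 0.4.0, FastQC 0.11.2 and bcl2fastq 2.17. No source used here gives the annotation or the counter's strand setting. The authors deposited raw counts per gene symbol, with 5 summary lines that were left out here (8.93% to 10.5% of pairs in no feature). They also deposited a table of RPKM values, a unit inferred from the values, with log2 fold changes, likelihood ratio scores, and p-values with false discovery rates. Its comparison over all genotypes was not analysed here.

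Count files were assigned by title after a match to the RPKM columns (tolerance 0.1%). edgeR 4.0.16 in R 4.3.3 tested the counts of all 6 libraries (TMM, filterByExpr, quasi-likelihood, 3 residual degrees of freedom) with Benjamini-Hochberg adjustment over 15187 genes at 0.05, and gave every adjusted p for which no other tool is named. SE is the absolute log2 fold change over the square root of F. CPM of single genes use TMM library sizes, and list sums use library totals. RPKM values were described, not tested. A count of 0 allows up to 3 reads, 0.0742 to 0.102 CPM, and intervals cover counting error only. The fit was tested on simulated counts. Alternatives were other scalings, no filter, DESeq2 1.42.0, limma-voom (limma 3.58.1), files as attached, a term for Xist of at least 10 CPM, only the 2 genotypes compared, and leaving out each library, where a lone library is assumed to vary like the other groups.

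Members and lists were chosen with earlier results of these data known. Members with a mean of at least 1 RPKM in a genotype, or past the threshold, are given in all libraries, and up to 4 genes of each other list by smallest p. Jup, Ctnnb1, Snai1, Adam10, Pecam1, Sox10, Lin28a, Rnf152 and Bcl2 fall outside that rule and were chosen after their values were seen. The same holds for Epcam, Esrp1, Krt7, Lrp2, Dab2 and Apob.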

Additional observations from a re-analysis of the deposited data

How the results depend on the processing

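By title, 7 of the 16 members called in mutant against wild type (Cdh1, Cdh3, Cdh6, Cdh11, Cdh20, Pcdh9 and Pcdh18) passed in all 14 alternatives, and the 16 kept their direction in all of these. The number of members passing, 16, was 10 with a term for high Xist, 0 with the files as attached and 9 to 15 on leaving out a library. All genes passing, 4654, were 2500, 0 and 1997 to 4265. For heterozygous against wild type, 0 members became 1 without the low-count filter, 5 with DESeq2, 1 with only the 2 genotypes compared and 0 to 3 on leaving out a library. All genes there, 997, were 1890 with DESeq2, 516 with the Xist term, 0 as attached and 313 to 748 on leaving out a library. For mutant against heterozygous, 1 member became 5 with DESeq2, 0 with limma-voom, 0 with the Xist term, 0 as attached and 0 to 2 on leaving out a library. All genes there, 66, were 182 without the filter, 1313 with DESeq2, 4 with the Xist term, 106 with only the 2 genotypes, 0 as attached and 11 to 81 on leaving out a library. Scaling by library totals gave 2328 higher and 2709 lower genes in mutant against wild type in place of 2594 and 2060, upper quartiles 2353 and 2614; both moved the median by under 0.1 and turned the direction of no member.

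Signs turned with the files as attached, where the log2 fold changes in mutant against wild type were -0.080 for Cdh24, -0.24 for Cdh3, -0.34 for Pcdh7, 0.018 for Cdh7, 0.13 for Cdh22, 0.14 for Cdh15, 0.18 for Cdh23, 0.25 for Pcdh9, 0.28 for Cdh13, 0.31 for Pcdh17, 0.46 for Cdh19, 0.65 for Pcdh8 and 1.22 for Pcdh11x. In heterozygous against wild type they were -0.10 for Pcdh1, -0.19 for Cdh3, -0.20 for Pcdh7, 0.045 for Cdh20, 0.051 for Cdh11, 0.075 for Cdh8, 0.13 for Cdh2 and 0.19 for Pcdh9. In mutant against heterozygous they were -0.051 for Cdh3, -0.14 for Pcdh7, 0.055 for Pcdh9, 0.11 for Pcdh18, 0.23 for Cdh7, 0.42 for Pcdh15, 0.43 for Pcdh17, 0.62 for Cdh22 and 2.90 for Cdh19. With the Xist term Cdh5 was at -0.21 in mutant against wild type. On leaving out a library the sign turned for values that had not passed: in mutant against wild type Cdh5 (-0.19 to 0.45), Cdh23 (-0.38 to 0.27), Cdh24 (-0.10 to 0.23), Pcdh11x (-0.94 to 0.50) and Pcdh19 (-0.25 to 2.05), in heterozygous against wild type Cdh2 (-0.54 to 0.026), and in mutant against heterozygous Cdh19 (-5.64 to 2.35), Cdh22 (-0.95 to 0.14) and Pcdh17 (-1.39 to 0.045). For the 2 contrasts with heterozygotes the fold changes were tabulated only for the 16 members called in mutant against wild type, so signs of the other 13 are not covered there. The cause of these changes was not tested. No paired analysis was possible because the titles give the genotypes no shared replicate numbers. With 2 libraries a group and under 100 reads for Cdh7, Cdh8, Cdh9, Cdh12, Cdh15 to Cdh19, Cdh23, Cdh26, Pcdh9 to Pcdh11x, Pcdh15 and Pcdh20 in every library, small changes of these genes were not detectable at this depth.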
